A study of Mus musculus with 8 samples.

Results

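The translation initiation and elongation factors of mouse gastrocnemius muscle were taken as the protein coding genes of the deposited table whose symbols begin with Eif1 to Eif6 or with Eef1 or Eef2, the kinases, methyltransferases and binding proteins that carry these prefixes included. This rule, which uses no measured value, gave 61 of the 15378 genes in the table, out of 12311 protein coding genes. They hold 285 of 56483 alternative polyadenylation sites (APSs), the clustered positions at which reads from transcript 3′ ends begin. Eif5a was not analysed here. Male mice without a functional AMPKα1 or AMPKα2, the catalytic subunits of the AMP-activated protein kinase, were each compared with their wild-type (WT) controls. Each of the 4 groups, AMPKα1 knockout (KO), AMPKα1 WT, AMPKα2 KO and AMPKα2 WT, was 2 animals sequenced separately, so the series has 8 libraries. Each KO is a whole-body deletion of the bases that encode part of the catalytic domain, and the labels name no treatment. The study's methods give about 6 weeks as the age of the AMPKα1 KO mice and about 8 weeks as that of the AMPKα2 KO mice, and give no age for the WT mice. All samples are labelled as adult skeletal muscle on a C57BL/6 background, whereas the methods give another strain, 129S2/SvPas, for the AMPKα1 KO mice.

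Initiation factors bring the initiator tRNA and the small ribosomal subunit to the cap of an mRNA and find the start codon, and elongation factors deliver the aminoacyl-tRNAs and move the ribosome along. AMPK is known to restrain both steps when energy is short, through mTORC1 and its targets, the eIF4E binding proteins, and through the kinase eEF2K, which inactivates eEF2. This control acts mainly by phosphorylation, whereas the data here are mRNA 3′ ends. Whole muscle was sampled, so fewer cells of a type and less RNA per cell cannot be told apart.

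The libraries held between 2311242 and 3549156 counted reads. Replicates in the AMPKα1 model differed far more than those in the AMPKα2 model. Of the genes with at least 20 reads in 1 AMPKα1 KO library, 21.9% had 0 in the other (6 of 55 factors), against 0.244% in AMPKα2 KO (0 of 41 factors), and the biological coefficient of variation was 104% and 26.2%. The 10 skeletal muscle markers were read in all libraries, with none at 0. Their summed level was 71075 to 81690 CPM (reads per 1e+06 scaled gene reads) in AMPKα1 KO against 104553 to 152128 in AMPKα1 WT, and 62518 to 81198 in AMPKα2 KO against 56395 to 60366 in AMPKα2 WT. Of the 4 adipocyte markers, 4 were higher in AMPKα1 KO (summed level 562 to 2155 CPM against 559 to 804 CPM). Of the 5 erythroid markers, 5 were higher in AMPKα2 KO (968 to 1490 CPM against 747 to 1130 CPM). No marker passed the test, and the part of these shifts in the results below was not tested. The targeted genes give no check of the labels, since the deleted bases are coding sequence of the catalytic domain and the reads mark transcript 3′ ends. Prkaa1 had 0 and 82 reads in AMPKα1 KO against 15 and 0 in AMPKα1 WT. Prkaa2 had 40 and 71 reads in AMPKα2 KO against 87 and 62 in AMPKα2 WT.

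The bases just upstream of the strongest APSs are shown because they hold a poly(A) signal, the motif that normally directs cleavage a short way downstream. They were read from GENCODE M21 transcripts (mouse GRCm38), 30 bases each and 5′ to 3′, with the signal in capitals. All but Eef2 end at the APS itself, and the Eef2 bases end where its annotated transcript ends, 4 bases before the APS. The APS of Eef1g is exonic but more than 50 bases from an annotated transcript end, and the others are within that distance of one.
Eef1a1 (chr9:78478455-78478484, minus strand): tttgagaccATTAAAacaagtttaatgaga
Eef1a2 (chr2:181147690-181147719, minus strand): cgttttcccAATAAActgagcgaccccaga
Eef2 (chr10:81182469-81182498, plus strand): ggagtAATAAActacagtggttgatccaca
Eif4ebp2 (chr10:61428491-61428520, minus strand): ttacagttaAATAAAgaccttgaatactga
Eef1g (chr19:8978155-8978184, plus strand): gggtcATTAAAgaaaactgaacattgaact
Eif4g1 (chr16:20692853-20692882, plus strand): gcctgtaattATTAAAcatgaattcaatta

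Such signals followed the place of the site in the gene. Only APSs whose 40 upstream bases lay within a single annotated exon could be read. These were 41 of the 59 factor APSs near annotated ends. AATAAA or, where that was absent, ATTAAA stood on the sense strand in the 40 bases before 75.6% of 41 factor APSs within 50 bases of an annotated transcript end, and before 76.7% of 6857 such APSs over all protein coding genes. Of 63 factor APSs inside coding exons, 3.17% had either signal, against 3.11% of 3993 over all protein coding genes. At other exonic APSs the share was 64.3% of 56 for the factors and 41.2% of 7943 for all protein coding genes. A stretch rich in A followed 12.98% of 131 factor APSs whose downstream bases could be read, against 23.4% of 13474, and such stretches can prime reverse transcription inside a transcript.

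In AMPKα2 libraries, reads of 3 initiation factor genes lay mainly at a different kind of site, the 3′ ends of small nucleolar RNAs (snoRNAs) encoded inside them. The same held there for the kinase gene Eif2ak3, which had only 38 reads in these libraries. Eif4a1 and Eif4a2 encode the RNA helicases of the cap-binding complex eIF4F, Eif4g2 encodes a scaffold related to eIF4G, and snoRNAs, which guide the modification of ribosomal RNA, are commonly cut from introns. The last 30 bases of the strongest annotated snoRNAs are shown because the APSs stand within 5 bases of their ends. The capitals mark ACA or, where that was absent, CTGA within the last 15 bases. ACA is the end motif of the box H/ACA class and CTGA the D box of the box C/D class. Of 1507 annotated snoRNAs, 50.8% had ACA in that window and 26.2% had CTGA without ACA, so a match is no more than a description.
Gm22988 in Eif4a1 (chr11:69669635-69669664, minus strand): ccaaagctgtttcatgcctagggcACAtaa
Gm25835 in Eif4a1 (chr11:69668852-69668881, minus strand): gcaaaggatcagtccttgtattCTGAgagc
Gm24029 in Eif4a1 (chr11:69667834-69667863, minus strand): tcctttgccctcctctggctgcctACAtgt
Gm26447 in Eif4a2 (chr16:23111400-23111429, plus strand): tagcagccagggacgcttggtctcaaACAt
Gm23262 in Eif4g2 (chr7:111076060-111076089, minus strand): atgagcgaagattatgagatatgagggcaa

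At the end of Gm22988 the AMPKα2 KO libraries held 983 and 1490 reads and the AMPKα2 WT libraries 1733 and 813. For Gm25835 these were 304 and 214 against 489 and 298 reads, and for Gm24029 134 and 106 against 308 and 186 reads. At these 3 ends every AMPKα1 library was at 0, so the reads were confined to AMPKα2 libraries of either genotype. The end of Gm26447 in Eif4a2 had 603 and 653 reads in AMPKα2 KO, 1731 and 966 in AMPKα2 WT and 0 in every AMPKα1 library. The end of Gm23262 in Eif4g2 had 1202 and 785 reads in AMPKα2 KO, 899 and 686 in AMPKα2 WT and a single read in the AMPKα1 libraries. The number of such APSs was 9 in 5 factor genes, the others lying in Eif4a2, Eef1b2 and Eif2ak3, at -5 to 6 bases from the snoRNA end.

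Summed over the AMPKα2 libraries, 98.6% of Eif4a1 reads, 98.9% of Eif4a2 reads and 76.7% of Eif4g2 reads were at snoRNA ends, against 0%, 3.37% and 0.0445% over the AMPKα1 libraries. Without them Eif4a1 kept 98 reads and Eif4a2 43 reads over the 4 AMPKα2 libraries, so the mRNA levels of both helicases in that model rest on few reads. In all, 69 protein coding genes had an APS at a snoRNA end. The largest sum was that of Pabpc4, a poly(A) binding protein gene, with 26845 of its 27777 reads in AMPKα2 libraries, and Eif4a1 ranked 3 with 7058. Age and, by the methods, strain are not the same in both KO groups and cannot be told apart from the model. The libraries of the models also differed away from snoRNA ends. Over all protein coding genes, APSs on the strand opposite to their gene took 1.13% to 1.82% of reads in AMPKα1 libraries. In AMPKα2 libraries they took 18.5% to 28.9%, although at most 0.331% of factor reads in any library. The cause of these differences was not tested.

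**Figure D1:**
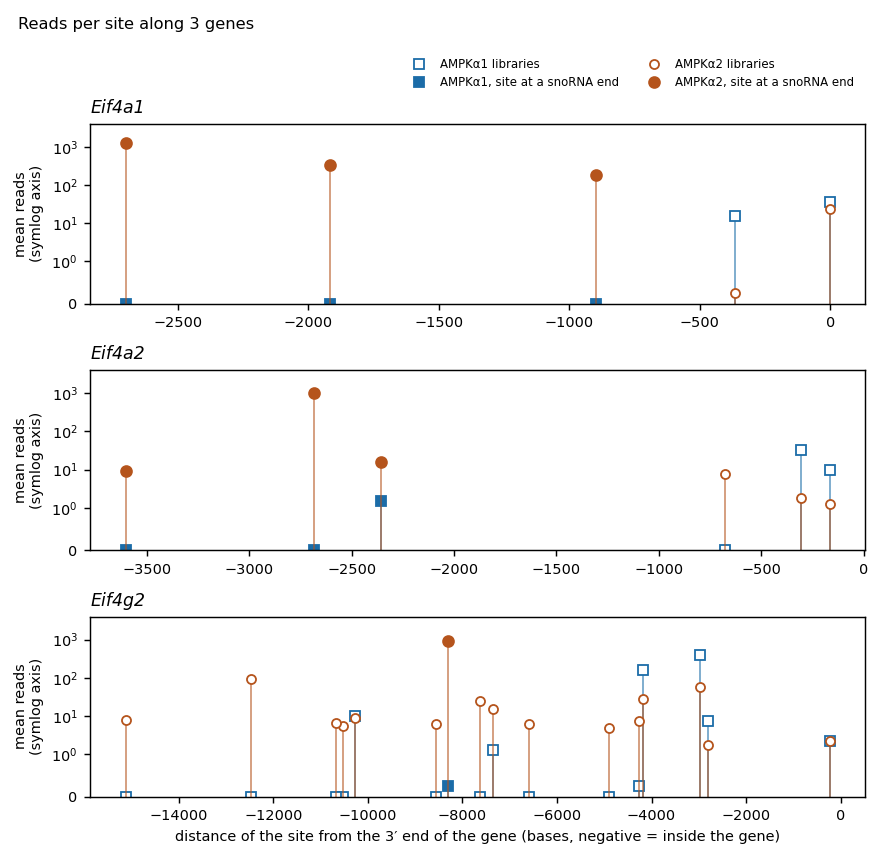
Mean reads per APS in the 4 AMPKα1 libraries (squares) and the 4 AMPKα2 libraries (circles), on an axis that is linear below 1 and logarithmic above, against the distance in bases from the 3′ end of Eif4a1, Eif4a2 or Eif4g2, with filled symbols for APSs at a snoRNA end. The tallest circles are filled and stand inside the genes, where the squares are at or near 0.

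Over all 61 genes, 41.6% and 30.05% of factor reads in AMPKα2 KO and 36.6% and 34.2% in AMPKα2 WT were at snoRNA ends, against 0% and 0% in AMPKα1 KO and 0.0399% and 0.0637% in AMPKα1 WT. KO and WT overlapped within AMPKα2. Over all protein coding genes, this share was 2.07% to 2.33% in the AMPKα2 libraries, so the factors carried a larger share than protein coding genes at large. APSs within 50 bases of an annotated end took 47.0% to 60.9% of factor reads in AMPKα1 libraries and 26.6% to 31.0% in AMPKα2 libraries, and coding exons took 9.18% to 14.3% and 15.6% to 19.01%. Over all protein coding genes annotated ends took 61.4% to 70.8% and 24.5% to 34.1% of reads, and coding exons took 3.602% to 4.89% and 10.3% to 14.6%. Coding exons thus held a larger share of factor reads than of protein coding reads in both models. In AMPKα1 libraries much of it was a single APS of Eif3j2. That APS held 97.7% of the gene's reads, and the gene took on average 4.96% of factor reads. Reads of Eif3j2 are uncertain, since its near-identical copy can share them. Of the 70 factor APSs inside coding exons, 48.6% had any read in AMPKα1 libraries and 98.6% in AMPKα2 libraries. The shares over the 4291 coding exon APSs of all protein coding genes were 48.9% and 99.2%.

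**Figure D2:**
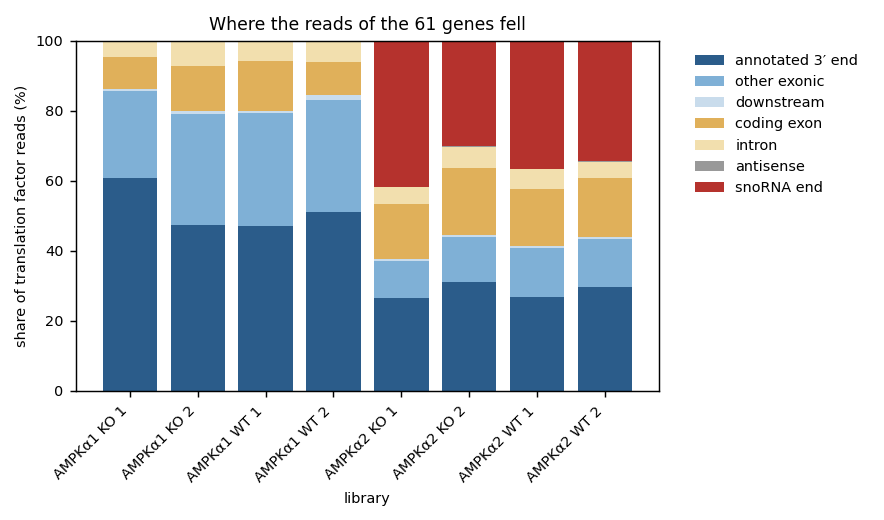
Share in percent of the reads of the 61 factor genes at each class of APS in each of the 8 libraries, stacked to 100%. The red part, reads at snoRNA ends, reaches 30.05% to 41.6% in the AMPKα2 libraries and at most 0.0637% in the AMPKα1 libraries.

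Members differed widely in level. A WTTS read is meant to mark a transcript end, so reads were compared between genes without a correction for length. In AMPKα2 libraries, however, only 26.6% to 31.0% of factor reads were near annotated ends. The strongest of the 14 APSs of Eif5b held 18.1% of its reads there. The part of gene length and of the number of APSs in the order below was not tested. In AMPKα1 libraries the most read factors were Eef2, the ribosomal translocase, with on average 12.03% of factor reads, and Eef1g, a scaffold of the eEF1B exchange complex, with 10.4%. Eif1, which guards start codon choice, followed with 7.50% and Eef1a1 with 6.36%. In AMPKα2 libraries Eif4a1 came first with 17.1% and Eif4g2 second with 11.8%, but without snoRNA ends the first places went to Eef1a2 with 15.4%, Eef2 with 9.96% and Eif5b, the factor that joins the subunits, with 8.13%. The strongest APS was the same in both models for 47 of the 61 genes.

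**Figure D3:**
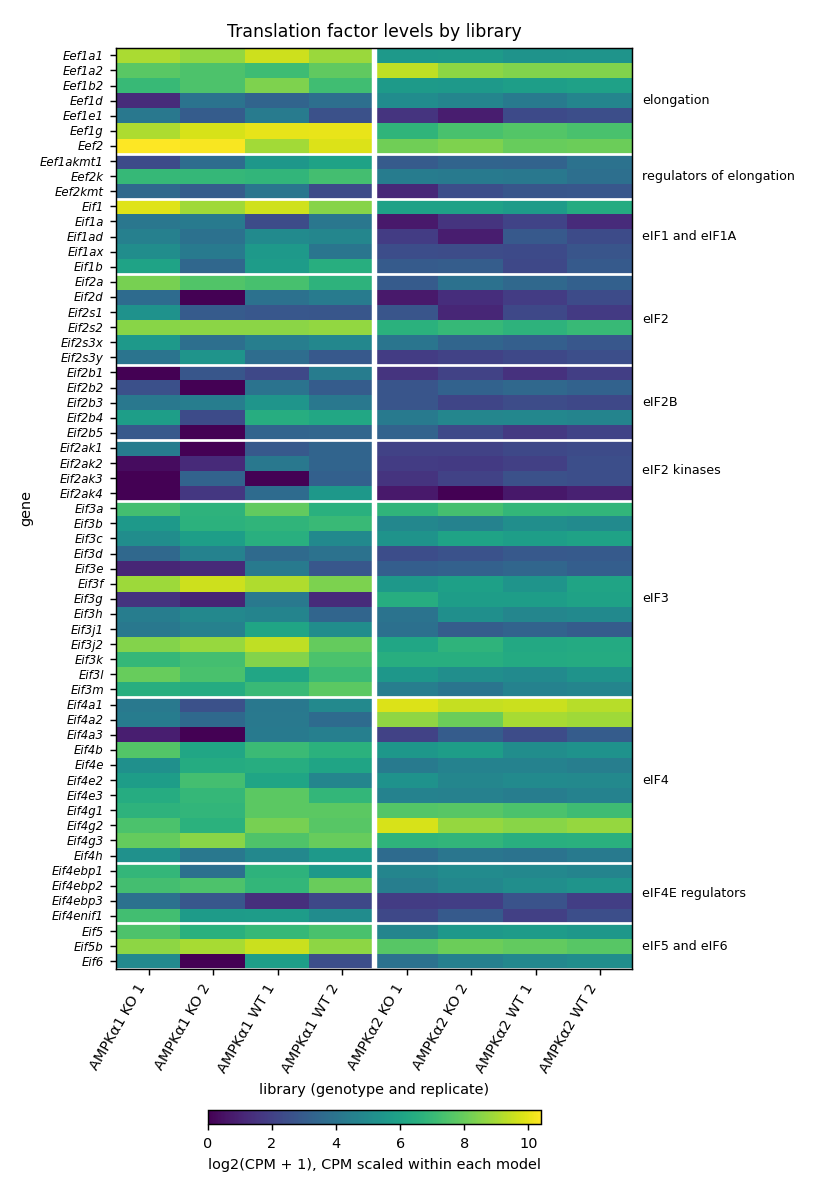
Level of each of the 61 factor genes (rows, grouped by role) in the 8 libraries (columns), as log2 of CPM plus 1 with CPM scaled within each model. Eif4a1, Eif4a2 and Eif4g2 are bright in the 4 AMPKα2 libraries, and the dark cells of single AMPKα1 libraries are genes with no read there.

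The 2 genes for eEF1A, the carrier of aminoacyl-tRNA, were read in opposite proportion in the models. Eef1a1 is the broadly expressed gene, and Eef1a2 is known to replace it in muscle and neurons after birth. Eef1a1 had 1864 and 1529 reads in AMPKα1 KO against 1418 and 1579 in AMPKα1 WT, but 73 and 125 in AMPKα2 KO and 136 and 87 in AMPKα2 WT. Eef1a2 had 749 and 639 reads in AMPKα1 KO, 259 and 798 in AMPKα1 WT, 1053 and 999 in AMPKα2 KO, and 1157 and 727 in AMPKα2 WT. The Eef1a2 share of their sum, which no scaling between libraries can alter, was 28.7% and 29.5% in AMPKα1 KO, and 15.4% and 33.6% in AMPKα1 WT. It was 93.5% and 88.9% in AMPKα2 KO, and 89.5% and 89.3% in AMPKα2 WT. The models did not overlap, whereas KO lay within the WT range in AMPKα1 and on either side of it in AMPKα2. At the strongest APS of each gene alone, whose upstream bases are shown above, the share was 9.45% to 24.2% in AMPKα1 libraries and 88.1% to 92.8% in AMPKα2 libraries. This contrast was chosen after its values were seen, and age and strain cannot be told apart from the model. Nor can the difference between the libraries of the models in snoRNA-end and opposite-strand reads. Eef1a1 itself had reads at 1 APS in AMPKα1 libraries and at 4 in AMPKα2 libraries. The models also differed in cell type markers (CPM scaled within each model). Summed fibroblast markers were at 11117 to 15931 CPM in AMPKα1 libraries and 1682 to 3644 CPM in AMPKα2 libraries. Schwann cell markers were at 421 to 1096 and 41.5 to 148 CPM. Endothelial sums (109 to 214 and 43.6 to 50.4 CPM) and smooth muscle sums (85.6 to 176 and 47.7 to 62.6 CPM) were also lower in AMPKα2 libraries. So were adipocyte sums (559 to 2155 and 170 to 533 CPM). Skeletal muscle, erythroid, macrophage and satellite cell sums overlapped between the models. The part of these differences in the contrast was not tested, and Eef1a1 reads are uncertain because near-identical copies can share them.

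**Figure D4:**
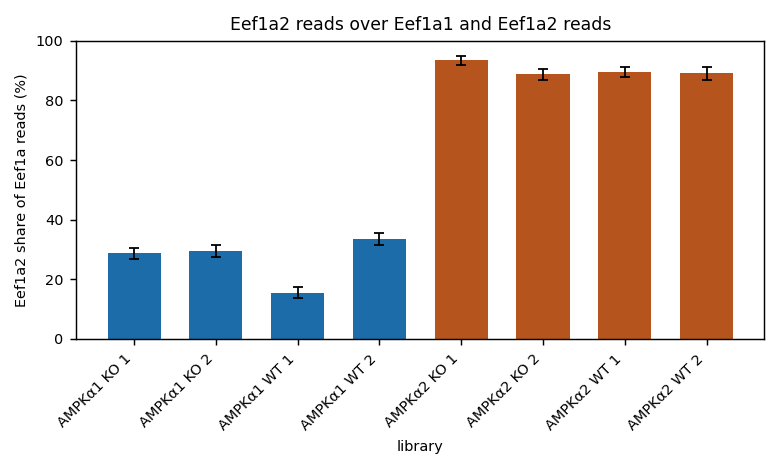
Eef1a2 reads as a percent of Eef1a1 and Eef1a2 reads in each library, with exact 95% binomial intervals that cover counting error only. The 4 AMPKα1 libraries lie between 15.4% and 33.6% and the 4 AMPKα2 libraries between 88.9% and 93.5%.

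To learn whether loss of AMPKα1 altered factor mRNA levels, KO and WT were compared per gene with edgeR's quasi-likelihood test. No factor passed the threshold, an adjusted p under 0.1, in 61 tested, and 0% of all 13941 genes tested did (587 genes had an unadjusted p under 0.05, and DESeq2 called 124 genes, none of them a factor). Of the factors, 21 were higher and 40 lower in KO, with a median log2 fold change of -0.36 against -0.03 over all genes, and without AMPKα1 WT replicate 1 that median was 0.06. The 95% interval of the log2 fold change lay within -1 and 1 for 1 factor, Eif2s2 (named after its values were seen), so changes of 2-fold are within reach of the intervals of the other 60.

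Among elongation factors in AMPKα1, Eef2 had 1341 and 1235 CPM in KO against 500.1 and 919 CPM in WT. The groups did not overlap, and the log2 fold change was 0.86 (SE 0.41, edgeR adjusted p = 0.763). Eef1a1 had 530.1 and 422 CPM in KO against 774 and 458 CPM in WT, and Eef1a2 had 213 and 177 CPM against 141 and 231 CPM. Both eEF1A genes overlapped between the genotypes. Eef1g had 556 and 873 CPM in KO, below the 1031 and 1053 CPM in WT (log2 fold change -0.54, SE 0.38). Eef2k, whose kinase AMPK activates, had 124 and 120 CPM in KO against 113 and 155 CPM in WT, a log2 fold change of -0.14 with a 95% interval from -1.16 to 0.89. Eef1akmt1, a methyltransferase of eEF1A, had 14 and 43 reads in KO against 81 and 218 reads in WT. Its log2 fold change of -2.75 (SE 0.85, edgeR adjusted p = 0.763, unadjusted p = 0.0165) had the lowest p among the factors.

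In the cap-binding group of AMPKα1, Eif4g1, the scaffold of eIF4F, had 106 and 115 CPM in KO against 221 and 215 CPM in WT (log2 fold change -0.98, SE 0.40, edgeR unadjusted p = 0.0453). The groups did not overlap. Eif4a3, a helicase of the exon junction complex, had 3 and 0 reads in KO against 34 and 74 reads in WT, a ratio of summed scaled reads of 0.0206 with an exact 95% counting interval from 0.00417 to 0.0617. Counting error alone does not cover replicate spread, and the edgeR unadjusted p was 0.0402 and the adjusted p 0.763. Eif4g2 had 174 and 97.5 CPM in KO against 308 and 207 CPM in WT, while Eif4g3 had 241 and 376 CPM against 182 and 248 CPM. The scaffold genes thus did not share a direction. Eif4e, the cap-binding protein, had 35.8 and 83.4 CPM in KO against 89.0 and 66.9 CPM in WT. Eif4b and Eif4h, helpers of the helicase, overlapped between genotypes, at 195 and 69.3 against 135 and 98.8 CPM and at 37.3 and 16.8 against 27.8 and 46.7 CPM. The genes of the eIF4E binding proteins, which mTORC1 controls, did not share a pattern. Eif4ebp1 had 116 and 13.3 CPM in KO against 104 and 46.7 CPM in WT, and Eif4ebp2 had 155 and 177 CPM against 115 and 256 CPM, both overlapping. Eif4ebp3, named after its values were seen, had 48 and 22 reads in KO against 3 and 13 reads in WT, without overlap (log2 fold change 1.84, SE 1.97, edgeR adjusted p = 0.947). Eif4a1 and Eif4a2 had 18 to 98 and 32 to 68 reads per AMPKα1 library.

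The eIF3 group, the scaffold on the small subunit, had 4 members higher and 9 lower in AMPKα1 KO, from -3.21 for Eif3e to 1.05 for Eif3l on the log2 scale. Eif3l had 251 and 169 CPM in KO against 70.4 and 133 CPM in WT (SE 0.50, edgeR unadjusted p = 0.0798), without overlap. Of the eIF2 group, which carries the initiator tRNA, 4 members were higher and 2 lower. Eif2s1, the subunit whose phosphorylation stops initiation, had 134 and 25 reads in KO against 11 and 20 reads in WT. Eif2a, an alternative initiator tRNA carrier, had 307 and 190 CPM in KO against 165 and 104 CPM in WT (log2 fold change 0.89, SE 0.47). All 5 genes of eIF2B, the exchange factor of eIF2, had log2 fold changes below 0, from -2.17 to -0.67, and the lowest unadjusted p among them was 0.229. Its catalytic subunit gene Eif2b5 had 23 and 0 reads in KO against 17 and 34 in WT. Sums so low can turn on a single library.

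That spread was plain in the eIF2 kinase genes of AMPKα1, the sensors of stress. Eif2ak1 (haem) had 68 and 0 reads in KO against 12 and 32 in WT. Eif2ak3 (endoplasmic reticulum stress) had 0 and 32 reads in KO against 0 and 28 in WT, and 17 of the last were at a snoRNA end (log2 fold change 0.11, and 1.416 without snoRNA ends). Eif2ak2 (double-stranded RNA) had 1 and 5 against 31 and 32, and Eif2ak4 (amino acid starvation) had 0 and 8 against 21 and 155. KO was below WT without overlap for the last pair, with log2 fold changes of -3.91 (SE 2.11) and -4.62 (SE 1.95) that did not pass the test. Eif6, which keeps the large subunit apart, had 102 and 0 reads in KO against 101 and 16 in WT. Eif5b had 398 and 516 CPM in KO against 749 and 394 CPM in WT. The eIF1 and eIF1A group, for scanning and start codon choice, had 2 members higher and 3 lower, from -0.96 to 0.72.

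**Figure D5:**
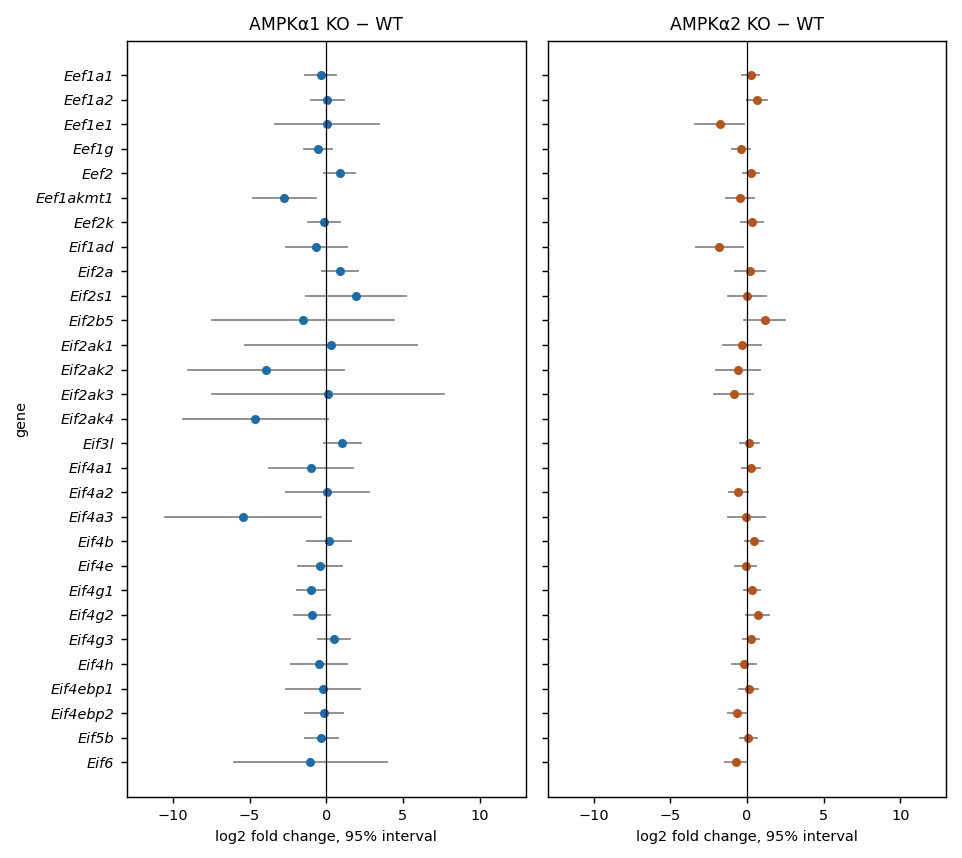
Log2 fold change of KO against WT (points) with 95% intervals from edgeR (lines) for 29 factor genes, AMPKα1 on the left and AMPKα2 on the right, on a shared axis. The median SE over all factors tested was 0.82 in AMPKα1 and 0.32 in AMPKα2, and Eif2ak4 has no AMPKα2 point because it had too few reads.

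In AMPKα2 the same question had a sharper answer, since the replicates lay closer. Again no factor was called among 60 tested, where 0.673% of all 10552 genes tested were (39 higher and 32 lower in KO). Of the factors, 28 were higher and 32 lower in KO, with a median log2 fold change of -0.06 against -0.0046 over all genes. The lowest adjusted p of a factor was 0.495, for Eif1ad. The 95% interval lay within -1 and 1 for 25 factors, so for these, each taken alone, a change in summed reads is bounded to less than 2-fold. The sums include reads at snoRNA ends. For Eif4a1, with 98.6% of its AMPKα2 reads there, the interval does not bound the mRNA.

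Among elongation factors in AMPKα2, Eef1a2 had 672 and 393 CPM in KO against 338 and 343 CPM in WT, without overlap (log2 fold change 0.64, SE 0.29, edgeR unadjusted p = 0.052, adjusted p = 0.590). Eef1a1 had 46.6 and 49.2 CPM in KO against 39.8 and 41.1 CPM in WT, and Eef2 had 280.0 and 329 CPM against 249 and 267 CPM. None of these 3 genes passed the test, and their log2 fold changes had 95% intervals from -0.01 to 1.29, -0.32 to 0.81 and -0.29 to 0.77. Without AMPKα2 KO replicate 1 the log2 fold change of Eef1a2 was 0.21. Eef1g had 110.3 and 169 CPM in KO against 196 and 169 CPM in WT. Eef2k had 19.8 and 18.1 CPM in KO against 17.0 and 12.7 CPM in WT, a log2 fold change of 0.33 with a 95% interval from -0.39 to 1.05. Eef1e1, a scaffold gene of the multi-tRNA synthetase complex, had 3 and 2 reads in KO against 14 and 10 reads in WT (log2 fold change -1.77, SE 0.72, edgeR unadjusted p = 0.0327). Eef1akmt1, lowest in p in AMPKα1, had 11 and 23 reads in KO against 30 and 30 reads in WT.

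In the cap-binding group of AMPKα2, Eif4g2 had 877.5 and 432 CPM in KO against 374 and 428 CPM in WT (log2 fold change 0.71, SE 0.33, edgeR unadjusted p = 0.0611). Most of these reads were at the end of Gm23262, and without snoRNA ends the log2 fold change was 0.12 (SE 0.23). It was 0.11 without AMPKα2 KO replicate 1, all sites included. Eif4a2 had 407.5 and 265 CPM in KO against 517 and 479 CPM in WT (log2 fold change -0.57, SE 0.28, edgeR unadjusted p = 0.0650), and Gm26447 gave nearly all of it. Without snoRNA ends Eif4a2 had 14 and 8 reads in KO against 7 and 14 in WT, and its direction turned to 0.49 (SE 0.70). Eif4a1 had 918 and 722 CPM in KO against 747 and 626 CPM in WT, a log2 fold change of 0.26 (SE 0.27) that was 0.09 (SE 0.42) without snoRNA ends. Eif4g1 had 195 and 207 CPM in KO against 172 and 143 CPM in WT, and Eif4g3 had 108 and 114 against 92.1 and 94.9 CPM. Neither overlapped between the genotypes, with 95% intervals from -0.17 to 0.88 and from -0.26 to 0.76. Eif4b had 44.0 and 54.3 CPM in KO against 33.3 and 37.8 CPM in WT (log2 fold change 0.48, SE 0.27). Eif4e had 18.5 and 23.2 CPM in KO against 23.7 and 20.8 CPM in WT, Eif4h 11.5 and 15.7 against 14.3 and 17.9 CPM, and Eif4a3 5 and 18 reads against 15 and 15 reads. All 3 overlapped between the genotypes.

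The eIF4E binding protein gene Eif4ebp2 had 21.04 and 27.1 CPM in AMPKα2 KO against 34.2 and 41.1 CPM in WT. The groups did not overlap (log2 fold change -0.63, SE 0.29, edgeR unadjusted p = 0.0538, adjusted p = 0.594). Eif4ebp1 had 25.5 and 31.5 CPM in KO against 28.1 and 25.02 CPM in WT, with a 95% interval from -0.52 to 0.74. Eif6 had 14.03 and 22.03 CPM in KO, below the 27.8 and 33.0 CPM in WT (log2 fold change -0.72, SE 0.32, edgeR unadjusted p = 0.0458). Eif5b had 208 and 263 CPM in KO against 238 and 207 CPM in WT.

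The eIF3 genes of AMPKα2 had narrow values, with 7 members higher and 6 lower in KO and log2 fold changes from -0.44 to 0.34. Eif3l had 44.0 and 33.8 CPM in KO against 30.4 and 39.7 CPM in WT. The eIF2B group had 3 members higher and 2 lower. Eif2b5, its catalytic subunit gene, had 14 and 10 reads in KO against 8 and 7 reads in WT (log2 fold change 1.15, SE 0.60, edgeR unadjusted p = 0.0829), opposite in sign to AMPKα1. The 3 eIF2 kinase genes tested had log2 fold changes below 0 without passing the test, from -0.88 for Eif2ak3 to -0.33 for Eif2ak1, with 3 to 17 reads per library in all 3 (Eif2ak4 had at most 2 reads). Of the Eif2ak3 reads, 60% to 100% per library were at the end of the snoRNA Gm23346, and without them the libraries kept 0 to 4 reads and the gene was not tested. Eif2s1 had 9 and 3 reads in KO against 13 and 5 in WT, and Eif2a had 11 and 35 against 36 and 17. Eif1ad, a protein with an eIF1A domain, had 4 and 2 reads in KO against 22 and 9 reads in WT (log2 fold change -1.81, SE 0.70, edgeR unadjusted p = 0.0251). This was the lowest p among the factors, and it rests on 37 reads.

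At single APSs the comparison asks whether the level of each end differed between KO and WT. A change of the whole gene also counts here. No factor APS was called in AMPKα1, where 192 were tested and 0.00454% of all 44024 tested APSs were called. An edgeR unadjusted p under 0.05 was found for 4 factor APSs and for 3.07% of all tested APSs. The final APS of Eif4g1, whose bases are shown above, had 230 and 260 reads in KO against 337 and 641 in WT (log2 fold change -1.55, SE 0.56, edgeR adjusted p = 0.543). The APS of Eef1akmt1 holds all its reads (log2 fold change -2.86, SE 0.98, edgeR adjusted p = 0.543). An exonic APS of Eif4e3, a cap-binding protein gene, had 251 and 156 reads in KO against 318 and 397 in WT (log2 fold change -1.48, SE 0.61). The 3 higher APSs with the lowest p were the main ends of Eef2, Eif4enif1 and Eif3l, with log2 fold changes of 0.75, 1.32 and 0.94, and Eif4enif1, an eIF4E transporter gene, had 478 and 149 reads in KO against 81 and 66 in WT. Without AMPKα1 KO replicate 1 its log2 fold change was 0.24. 

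In AMPKα2, 197 factor APSs were tested and none was called, where 0.056% of all 23218 tested APSs were called. An edgeR unadjusted p under 0.05 was found for 6 factor APSs and for 7.59% of all tested APSs. The lowest p was at an APS inside a coding exon of Eif3a, the largest eIF3 subunit gene (chr19, position 60766647, minus strand, GRCm38), with 17 and 44 reads in KO against 6 and 5 in WT. Its log2 fold change was 2.66 (SE 0.56, edgeR unadjusted p = 0.0015, adjusted p = 0.450), and all AMPKα1 libraries were at 0 there. Another coding exon APS of Eif3a, at 60764107, had 27 and 65 reads in KO against 33 and 21 in WT (log2 fold change 1.01, SE 0.43), also with 0 in AMPKα1. At the most read annotated end of Eif3a the values were 12 and 29 reads in KO against 28 and 24 in WT. A further coding exon APS, at 60762179, had 4 and 9 reads in KO against 24 and 14 in WT (log2 fold change -1.25, SE 0.57), so the internal APSs of the gene did not share a direction. The annotated end of Eif4ebp2 had 20 and 48 reads in KO against 94 and 69 in WT (log2 fold change -1.03, SE 0.41, edgeR adjusted p = 0.630), the same direction as the gene. A coding exon APS of Eef1a2 at 181155290, named after its values were seen, had 32 and 24 reads in KO against 13 and 15 in WT (log2 fold change 1.31, SE 0.56). The other APSs with the lowest p were those of Eif4b at 102090130 (7 and 17 reads against 6 and 3), of Eef1e1 and of Eif4a2 at Gm26447 (log2 fold change -0.73, SE 0.32).

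Use of APSs within a gene was tested over the genes with more than 1 tested APS. In AMPKα1, 42 factors were tested and none was called, where 0.0131% of all 7645 genes were. The 2 factors with an unadjusted p under 0.05, Eif2ak3 (0.0235) and Eif3j1 (0.0261), were named after their values were seen. Eif2ak3 was read in a single library per genotype, with 60.7% of its reads in AMPKα1 WT replicate 2 at a snoRNA end. Of all genes tested for APS use in AMPKα1, 11.4% had such a p. In AMPKα2, 32 factors were tested and none was called, where 0.104% of all 3838 genes were. Eif3a, with 13 APSs tested, had the lowest p, 0.00356 (edgeR adjusted p = 0.401).

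The difference between the models in the effect of the KO was tested as an interaction over 8 libraries. No factor was called among 61, where 0.065% of all 15378 genes were. An edgeR unadjusted p under 0.05 was found for 5 factors and for 6.98% of all genes. The 5 factors with an unadjusted p under 0.05, named after their values were seen, were Eif4a3, Eif4g1, Eif4g2, Eif3e and Eef1akmt1. All had a larger log2 fold change in AMPKα2 than in AMPKα1, by 5.21 for Eif4a3 (SE 1.61) and 1.32 for Eif4g1 (SE 0.41), with edgeR adjusted p of 0.509 and 0.516. The difference for Eif4g2 was 1.59 (SE 0.61) with snoRNA ends and 1.02 (SE 0.54) without them.

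The wider pathway was read from 40 genes of mTORC1, its targets, the integrated stress response, poly(A) binding, termination and related steps. Of these, 36 were in the table. In AMPKα1 none of 36 tested passed in either direction, with a median log2 fold change of 0.03, and in AMPKα2 none of 33 tested passed, with a median of -0.06. Ddit4, a stress-induced inhibitor of mTORC1, had 10 and 103 reads in AMPKα1 KO and 0 in both WT libraries, with most of these reads in a single library (edgeR unadjusted p = 0.0340, adjusted p = 0.763). Pdcd4, an inhibitor of eIF4A, had 41 and 44 reads in AMPKα2 KO against 22 and 18 in WT (log2 fold change 1.54, edgeR unadjusted p = 0.00210, adjusted p = 0.193), the lowest p of the list. Atf4, the main transcription factor of the stress response, had 381 and 355 CPM in AMPKα1 KO against 514 and 281 CPM in WT, which overlapped (log2 fold change -0.11). It had 67.6 and 84.2 CPM in AMPKα2 KO against 51.5 and 59.5 CPM in WT, without overlap (log2 fold change 0.46, SE 0.25, edgeR unadjusted p = 0.0984). Mtor itself had at most 10 reads in any library. Pabpc4 is subject to the snoRNA reads given above.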

How the data were processed

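WTTS-seq libraries of 8 gastrocnemius samples were analysed. The authors filtered the reads, trimmed leading Ts, mapped reads of at least 16 bases with TMAP, clustered their first bases within 24 nucleotides into APSs and assigned genes with Cuffcompare. The deposited values are raw read counts per APS and library (GRCm38.p5 in the submitters' processing notes). Counts were summed per gene over all its APSs on either strand. KO and WT were compared within a model with edgeR 4.0.16 (limma 3.58.1, R 4.3.3): TMM scaling, robust quasi-likelihood test, at least 16 reads over the libraries fitted, Benjamini-Hochberg adjustment over all genes or APSs and a threshold of 0.1. The study used DESeq2 (1.42.0 here), which was an alternative. APS use was tested with diffSpliceDGE, and SEs were derived from the F statistic. The code was tested on simulated data. With 2 against 2 libraries an exact permutation test cannot go below p = 0.333. A floor of 3 reads was 0.829 to 1.91 CPM. Floors and the exact intervals of shares and ratios cover counting error only. PCR copies count as reads in them, since the reads lack molecular identifiers. The edgeR intervals of log2 fold changes also include the spread between replicates. p-values measure the spread between these mice.

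Positions were matched to GENCODE M21 (GRCm38). An APS within 10 bases of an annotated snoRNA 3′ end on its strand was called a snoRNA end, and otherwise an APS within 50 bases of an annotated transcript end an annotated end. A-rich meant 7 consecutive As, or 8 in 10 bases, in the 30 bases downstream. Members and lists were chosen with earlier results of these data known. The rule for named factors took a fixed list, the 5 with the highest mean CPM, and per model, level and direction the 3 with the lowest p. Reads of Eef1a1, Eif1, Eif3e, Eif4a1, Eif3j1 with Eif3j2, Eif1a with Eif1ax and Eif2s3x with Eif2s3y are uncertain, since near-identical copies can share them. Python 3.11.15 (numpy 2.4.6, pandas 2.3.3, scipy 1.17.1, matplotlib 3.10.9) was used for tables and figures.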

Additional observations from a re-analysis of the deposited data

How the results depend on the processing

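No factor gene was called in either model under any alternative, including DESeq2, DESeq2 size factors, no filter on low counts, at least 50 reads, all 8 libraries in a single fit, the gene strand only and each library left out. Counts over all genes and APSs were less stable, and the cause was not tested. For scale, 192 of the 44024 APSs tested in AMPKα1 and 197 of the 23218 tested in AMPKα2 were factor APSs in the fits as reported. Of the 15378 genes tested for the interaction, 61 were factors. Whether factors were called more often than other features was not tested. In AMPKα1, 0 genes were called by the test as reported, 124 by DESeq2 and 97 with all 8 libraries fitted. For APSs of AMPKα1 the count of 2 became 218 with DESeq2, 4 without a filter, 0 with at least 50 reads, 1566 with all 8 libraries (13 of them factor APSs) and 0 to 170 with a library left out. In AMPKα2, 71 called genes became 397 without a filter, 7 with all 8 libraries and 38 to 99 with a library left out. For APSs of AMPKα2 the count of 13 became 96 with DESeq2, 557 without a filter (1 factor APS, that of Eif3a at 60766647, adjusted p = 0.00611), 2 with all 8 libraries and 0 to 76 with a library left out. For APS use, 1 gene in AMPKα1 became 0 with at least 50 reads and 0 to 1 with a library left out, and 4 genes in AMPKα2 became 1 and 0 to 81. The interaction called 10 genes, 180 with DESeq2, 4 without snoRNA ends (chosen after seeing the data) and 0 to 550 with a library left out, of which 0 to 6 were factors, with 6 without AMPKα1 KO replicate 1 and 1 without AMPKα1 KO replicate 2.

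KO and WT carry the same replicate numbers but are different mice. Deviations of same-numbered libraries were nearly uncorrelated over genes (0.0338 in AMPKα1 and -0.00626 in AMPKα2), so the fits as reported used no pairing. A single correlation per model cannot exclude a pairing that acts on some genes or APSs. With the replicate block, 519 APSs were called in AMPKα2, 1 of them a factor APS (Eif3a at 60766647, adjusted p = 0.0175), 11 genes in AMPKα2 and 0 in AMPKα1 for APS use, and 0 genes for the interaction. The block also turned Eif2ak1 in AMPKα1 to -2.08 and Eif2s1 in AMPKα2 to 0.028.

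Eif2s1 in AMPKα2, at -0.003, was 0.10 with DESeq2, 0.0049 with DESeq2 size factors, 0.15 with all 8 libraries and 0.0012 on the gene strand only. Eif4a2 in AMPKα2 was 0.49 without snoRNA ends. With a library left out, the log2 fold change of 13 named factors in AMPKα1 took either sign: Eef1a1 from -0.66 to 0.058, Eef1a2 from -0.25 to 0.50, Eef1e1 from -0.73 to 1.29, Eef2k from -0.35 to 0.15, Eif2ak1 from -7.57 to 1.28, Eif2ak3 from -6.61 to 6.75, Eif4a2 from -0.42 to 0.43, Eif4b from -0.76 to 0.73, Eif4e from -1.12 to 0.094, Eif4ebp1 from -2.50 to 0.63, Eif4ebp2 from -0.62 to 0.56, Eif5b from -0.67 to 0.22 and Eif6 from -9.46 to 1.64. In AMPKα2 it did so for 7: Eif2a from -0.43 to 0.55, Eif2s1 from -1.39 to 0.83, Eif3l from -0.048 to 0.35, Eif4a3 from -0.81 to 0.34, Eif4e from -0.28 to 0.061, Eif4ebp1 from -0.072 to 0.25 and Eif5b from -0.11 to 0.24. Other values kept their sign but moved more than 1.5 times, such as Eef1a2 (0.21 to 0.97) and Eif4g2 (0.11 to 1.12) in AMPKα2 and the Eif4enif1 APS in AMPKα1 (0.24 to 2.12).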

Other observations

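Pseudogene copies of the factor families also had reads. Eif3s6-ps1, a copy related to Eif3e, had 132 and 67 reads in AMPKα1 KO and 118 and 23 in AMPKα1 WT, and 45 and 68 in AMPKα2 KO and 96 and 78 in AMPKα2 WT. Eif3e itself had 4 and 5 reads in AMPKα1 KO, 33 and 21 in AMPKα1 WT, 12 and 21 in AMPKα2 KO, and 33 and 16 in AMPKα2 WT, so the copy was read more than the gene in all libraries. Eif4a-ps4 had 2 to 19 reads per library, Eif1-ps3 3 to 31 and Eif3s6-ps2 3 to 21.

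The gene pair Eif3j1 and Eif3j2, which encode near-identical eIF3 subunits, was read mostly at Eif3j2. Its share was 95.5% and 95.1% in AMPKα1 KO, 91.0% and 88.0% in AMPKα1 WT, 84.1% and 93.5% in AMPKα2 KO, and 89.8% and 91.9% in AMPKα2 WT. How the authors' mapping split reads between the pair was not tested.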
